A study of Mus musculus with 18 samples.

Results

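The genes described here are 10 cyclins and inhibitors of cyclin-dependent kinases (CDKs) that act in the G1 phase of the cell cycle. They are the D-type cyclin genes Ccnd1, Ccnd2 and Ccnd3, the E-type cyclin genes Ccne1 and Ccne2, the CIP/KIP inhibitor genes Cdkn1a, Cdkn1b and Cdkn1c, and the INK4 inhibitor genes Cdkn2b and Cdkn2c. They were taken by gene symbol from the 55335 gene identifiers counted, and all 10 were found. Poly(A) RNA was sequenced from O9-1 cells, a mouse neural crest (NC) line derived from the head of early embryos, which were grown in osteoblast differentiation medium. The 18 libraries form 6 groups of 3. Cells with scramble siRNA received vehicle (Ctrl+vehicle) or FGF2 (Ctrl+FGF2), and cells with siRNA pools against Yap and Taz received FGF2 (Y/T dKD+FGF2), each at d2.5 and again at d5. All groups carry the genotype label Wildtype, all were transfected with siRNA, and no group combined the knockdown with vehicle. The knockdown was transient and left part of both messages in place. Yap1 was between 65.3 and 69.6 CPM (counts per 1000000 counts of the library) in the d2.5 Y/T dKD+FGF2 libraries against 126 to 132 in Ctrl+FGF2, and Wwtr1, the Taz gene, was between 130.0 and 142 against 219 to 225. With vehicle at d2.5, Yap1 was between 148 and 153 CPM and Wwtr1 between 138 and 142, which overlapped the Wwtr1 range after knockdown. At d5 Yap1 was between 67.2 and 74.0 CPM against 147 to 159, and Wwtr1 was between 122 and 128 against 213 to 219. The day of collection is also the batch label, so that day and batch cannot be told apart.

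In G1, D-type cyclins activate Cdk4 and Cdk6, which phosphorylate the retinoblastoma (Rb) family of pocket proteins and so release E2F transcription factors. E2F factors then drive the E-type cyclins, the partners of Cdk2, together with the genes of DNA synthesis. INK4 proteins block Cdk4 and Cdk6, and CIP/KIP proteins bind cyclin-CDK complexes and block Cdk2. D-type cyclins are known targets of growth factor signalling, and inhibitors of the CIP/KIP family commonly accumulate when precursor cells leave the cycle. The data are levels of messages only, while several of these proteins are also controlled by degradation.

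Promoter sequences are shown for members whose levels ran close together (Ccne1 with Cdkn2c, Ccnd3 with Cdkn1b), for Cdkn1a, whose FGF2 change had the same sign on both days, and for Cdkn2b, which had no count at all. RefSeq promoters on GRCm38.p6, from 250 bases before to 50 after a start site, were matched for 6 of the 10 members, with 9 start sites. Ccnd1, Ccnd2, Ccne2 and Cdkn1c had none matched. Both strands were searched for E2F sites (TTTCGCGC, TTTGGCGC, TTTCCCGC or GGCGGGAA), a TEAD site (GGAATG, the core bound by the partners of Yap and Taz), an AP-1 site (TGANTCA), a cAMP response element (CRE, TGACGTCA), a piece of a p53 element (ACATGT), an Sp1 site (GGGCGG) and the CCAAT box. TEAD, CRE and p53 letters are in capitals and the sequences run 5′ to 3′ on the strand of the gene.
Ccne1, chr7:38107441-38107740, minus strand: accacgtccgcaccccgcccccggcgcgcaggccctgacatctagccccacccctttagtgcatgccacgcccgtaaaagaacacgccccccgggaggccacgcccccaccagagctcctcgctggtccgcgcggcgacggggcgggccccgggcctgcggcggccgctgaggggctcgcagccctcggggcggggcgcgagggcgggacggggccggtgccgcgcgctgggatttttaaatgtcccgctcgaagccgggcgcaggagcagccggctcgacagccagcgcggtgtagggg
Cdkn2c, chr4:109666707-109667006, minus strand: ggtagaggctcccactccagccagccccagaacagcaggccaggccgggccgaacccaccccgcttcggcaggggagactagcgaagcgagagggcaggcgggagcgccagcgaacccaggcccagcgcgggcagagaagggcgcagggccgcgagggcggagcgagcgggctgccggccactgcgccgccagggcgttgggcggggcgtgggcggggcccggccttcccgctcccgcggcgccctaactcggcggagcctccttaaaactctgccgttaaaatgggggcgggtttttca
Ccnd3, chr17:47593217-47593516, plus strand: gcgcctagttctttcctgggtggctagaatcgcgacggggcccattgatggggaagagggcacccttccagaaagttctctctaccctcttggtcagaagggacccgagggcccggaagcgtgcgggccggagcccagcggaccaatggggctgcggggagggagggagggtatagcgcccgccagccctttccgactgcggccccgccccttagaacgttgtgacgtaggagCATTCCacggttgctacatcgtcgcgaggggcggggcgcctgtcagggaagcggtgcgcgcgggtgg
Cdkn1b, chr6:134920151-134920450, plus strand: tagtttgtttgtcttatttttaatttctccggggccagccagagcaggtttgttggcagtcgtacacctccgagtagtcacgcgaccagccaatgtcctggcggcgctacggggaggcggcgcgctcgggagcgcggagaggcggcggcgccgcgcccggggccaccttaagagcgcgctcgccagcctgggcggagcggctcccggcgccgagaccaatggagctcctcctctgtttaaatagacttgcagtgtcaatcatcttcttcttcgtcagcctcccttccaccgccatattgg
Cdkn1a, chr17:29090729-29091028, plus strand: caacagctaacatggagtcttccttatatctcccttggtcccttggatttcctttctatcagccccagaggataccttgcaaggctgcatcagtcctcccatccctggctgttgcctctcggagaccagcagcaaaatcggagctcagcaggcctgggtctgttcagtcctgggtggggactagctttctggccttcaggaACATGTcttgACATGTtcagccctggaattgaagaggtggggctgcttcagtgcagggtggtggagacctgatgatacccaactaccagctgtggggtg
Cdkn2b, chr4:89310983-89311282, minus strand: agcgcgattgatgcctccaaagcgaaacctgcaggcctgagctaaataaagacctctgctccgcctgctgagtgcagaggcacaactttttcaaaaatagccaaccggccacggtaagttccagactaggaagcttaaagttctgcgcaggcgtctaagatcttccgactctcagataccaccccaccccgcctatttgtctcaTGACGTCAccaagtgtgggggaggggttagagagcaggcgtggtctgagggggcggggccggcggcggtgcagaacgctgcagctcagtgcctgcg

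The Ccnd3 window shown held the TEAD letters on the minus strand, with their first base 17 bases before the start site, and 14.7% of the 32851 promoters of this length held them as well. The window of the other Ccnd3 start site (chr17:47504801-47505100) held none. In the Cdkn1a window shown the ACATGT letters stood at 49 and at 39 bases before the start site, and 5.28% of all promoters held at least 1 copy. The window of the other Cdkn1a start site (chr17:29093519-29093818) held none, but held Sp1 letters. The CRE letters of Cdkn2b began 46 bases before its start, and were found in 1.79% of promoters. The E2F letters, which 0.323% to 2.19% of promoters held, and the AP-1 letters, held by 7.81%, were in none of the 9 windows. The Sp1 letters were in 35.7% of all promoters, and were in each of the windows shown except that of Cdkn1a. The CCAAT box was in the shown windows of Ccnd3 and Cdkn1b and in 37.4% of all promoters. These matches describe letters in a window and not binding.

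Gene counts were between 10377151 and 14698525 per library (median 12330911), and levels are CPM after TMM scaling of all 18 libraries. Comparisons within a day were tested with edgeR's quasi-likelihood test on the 9 libraries of that day, and comparisons between days on all 18 libraries. A gene is called when its Benjamini-Hochberg adjusted p over all genes tested is under 0.05, and adjusted p-values here come from this test. Its fitted fold can differ slightly from the ratio of the CPM printed, since scaling within a day was computed anew. No label says that the 3 replicates of a group were separate cultures, so p-values measure the spread between these samples, which may be technical. Of the 10 members, 9 passed the filter on low counts and were tested, and Cdkn2b was not. In bulk RNA, fewer cells of a type and less RNA per cell cannot be told apart. Of 13 neural crest and mesenchyme markers, Sox10 and Foxd3 had no count in any library, and the summed level of the list was between 1990 and 2776 CPM. The sum hides opposite changes. With FGF2, 1 of 11 tested was called higher and 4 lower at d2.5, and 4 higher and 4 lower at d5. With the knockdown, 3 were higher and 2 lower at d2.5, and 5 higher and 5 lower at d5. The 6 osteoblast markers summed to 13250 to 13410 CPM in d2.5 Ctrl+vehicle and to 2299 to 2426 in d2.5 Ctrl+FGF2, and to 31100 to 33110 and 15860 to 17610 at d5. With FGF2, 5 of 5 tested were called lower at d2.5, while 4 of 6 were lower and 2 higher at d5. In Y/T dKD+FGF2 the 6 markers summed to 2163 to 2299 CPM at d2.5 and to 21890 to 23260 at d5. Against Ctrl+FGF2, 2 of 5 tested were called higher and 1 lower at d2.5, and all 6 were called higher at d5. Beside both lists, FGF2 gave calls in 67.6% of all genes tested at d2.5 and in 47.2% at d5. The knockdown gave calls in 24.5% at d2.5 and in 31.7% at d5. The endothelial and epithelial lists were under 4 CPM in every library and the immune list at or below 5.5 CPM. The part of these differences in the results was not tested.

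**Figure D1:**
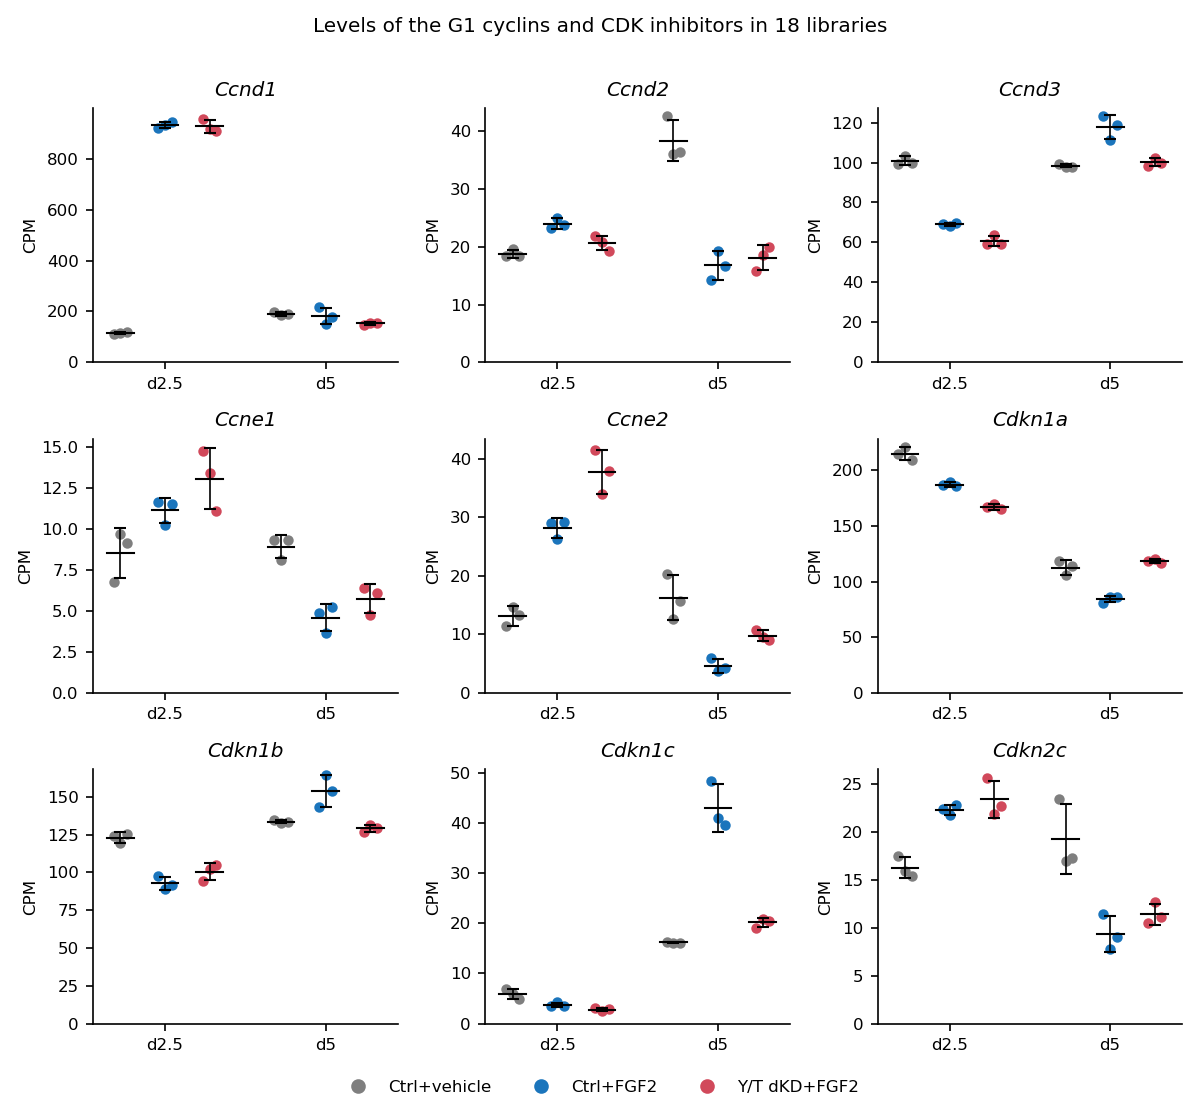
Levels of the 9 detected members in CPM (linear axes from 0) for 3 groups at d2.5 and d5. Points are single libraries, horizontal bars are means and error bars are SD (n = 3); Ccnd1 at d2.5 is near 930 CPM in both FGF2-treated groups and under 120 CPM with vehicle, and Cdkn1c is highest in the d5 Ctrl+FGF2 libraries.

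The first comparison asks how these genes differed between FGF2 and vehicle at d2.5. Ccnd1, the cyclin that links growth factor signals to Cdk4 and Cdk6, was 7.98-fold higher with FGF2. The other cyclins changed less and not all in the same direction, since Ccnd2, Ccne1 and Ccne2 rose while Ccnd3 fell. All 3 CIP/KIP genes fell and the INK4 gene Cdkn2c rose. Thus 9 of the 9 tested members were called, where 67.6% of all 13677 genes tested were called. Their median log2 fold change was 0.34, against 0.00 over all genes tested.

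Ccnd1 was at 113, 116 and 119 CPM in the Ctrl+vehicle libraries and at 921, 931 and 943 CPM in Ctrl+FGF2. The groups were far apart and each varied little (116 ± 3.03 and 932 ± 10.8 CPM, SD, n = 3). The log2 fold change was 2.997 (SE 0.03, adjusted p = 3.11e-34). Ccnd2 was at 18.4, 19.6 and 18.4 CPM with vehicle and at 23.2, 25.0 and 23.9 with FGF2, with no overlap. It was 1.27-fold higher (log2 0.34, SE 0.07, adjusted p = 0.000118). Ccnd3 was between 99.2 and 103 CPM with vehicle and at 69.3, 68.2 and 69.7 with FGF2, so that each FGF2 library was below each vehicle library. It was 1.47-fold lower (log2 -0.56, SE 0.04, adjusted p = 6.36e-13).

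Of the E-type cyclins, Ccne2 had the larger difference. It was at 11.4, 14.7 and 13.4 CPM with vehicle and at 29.0, 26.2 and 29.2 with FGF2. These groups did not overlap, and the gene was 2.12-fold higher (log2 1.09, SE 0.09, adjusted p = 2.45e-12). Ccne1 was at 6.76, 9.68 and 9.12 CPM with vehicle and at 11.6, 10.3 and 11.5 with FGF2. Its groups came close, with a 1.30-fold rise (log2 0.37, SE 0.12, adjusted p = 0.00854) that was not called when the vehicle library of replicate 1, the lowest, was left out (log2 0.23, adjusted p = 0.0904).

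Among the inhibitors, Cdkn1a (p21, a target of p53) was at 215, 221 and 209 CPM with vehicle and at 187, 189 and 186 with FGF2. The FGF2 libraries were all lower, by 1.16-fold (log2 -0.21, SE 0.03, adjusted p = 2.68e-06). Cdkn1b (p27) was between 119 and 126 CPM with vehicle and between 89.0 and 97.5 with FGF2, which was 1.34-fold lower (log2 -0.42, SE 0.04, adjusted p = 8.44e-10). Cdkn1c (p57, an imprinted gene) was low in both groups, at 6.83, 5.87 and 4.87 CPM and at 3.59, 4.22 and 3.48 CPM. It was 1.58-fold lower with FGF2 (log2 -0.66, SE 0.15, adjusted p = 0.000398). Cdkn2c (p18) was between 15.4 and 17.5 CPM with vehicle and between 21.8 and 22.8 with FGF2, and was thus 1.36-fold higher (log2 0.44, SE 0.08, adjusted p = 1.01e-05).

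The rest of the G1/S pathway was examined as lists of genes. Of the kinases and their activating complex, 5 of 6 were higher with FGF2 at d2.5 and none was lower. Cdk6 had the largest rise (log2 1.51, SE 0.05, adjusted p = 1.44e-22). Of the 10 E2f and Dp genes 9 were higher, and E2f2, an activating factor, rose most, from 0.730 ± 0.253 to 6.16 ± 0.470 CPM (SD, n = 3, log2 3.02, adjusted p = 1.01e-13). The pocket proteins were divided. Rbl1 (p107) was higher (log2 1.06, adjusted p = 4.27e-15), while Rb1 was lower (log2 -0.53, adjusted p = 4.55e-10) and so was Rbl2 (p130) (log2 -0.28, adjusted p = 2.87e-06). Of 12 genes of cyclin and inhibitor turnover or CDK activation, 6 were higher and 3 lower. Dtl, an adaptor of the ubiquitin ligase that marks p21 and Cdt1 for degradation, rose most (log2 1.06, adjusted p = 1.41e-14), and Ddb1, a subunit of the same ligase, fell most (log2 -0.51, adjusted p = 1.02e-15). The other INK4 gene tested, Cdkn2d (p19), was higher (log2 0.31, adjusted p = 0.0186). Of 8 upstream factors 4 were higher and 3 lower, with Myc, an activator of D-type cyclin and E2f genes, at the top (log2 1.35, adjusted p = 1.06e-22) and Foxo1, a factor that induces CIP/KIP genes, at the bottom (log2 -0.86, adjusted p = 1.12e-07). All 16 E2F target genes of S phase were higher (median log2 1.23), Tk1 the most (log2 1.77, adjusted p = 1.9e-22), and all 10 G2/M genes as well (median log2 1.08), led by Aurkb (log2 1.25, adjusted p = 1.37e-18).

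**Figure D2:**
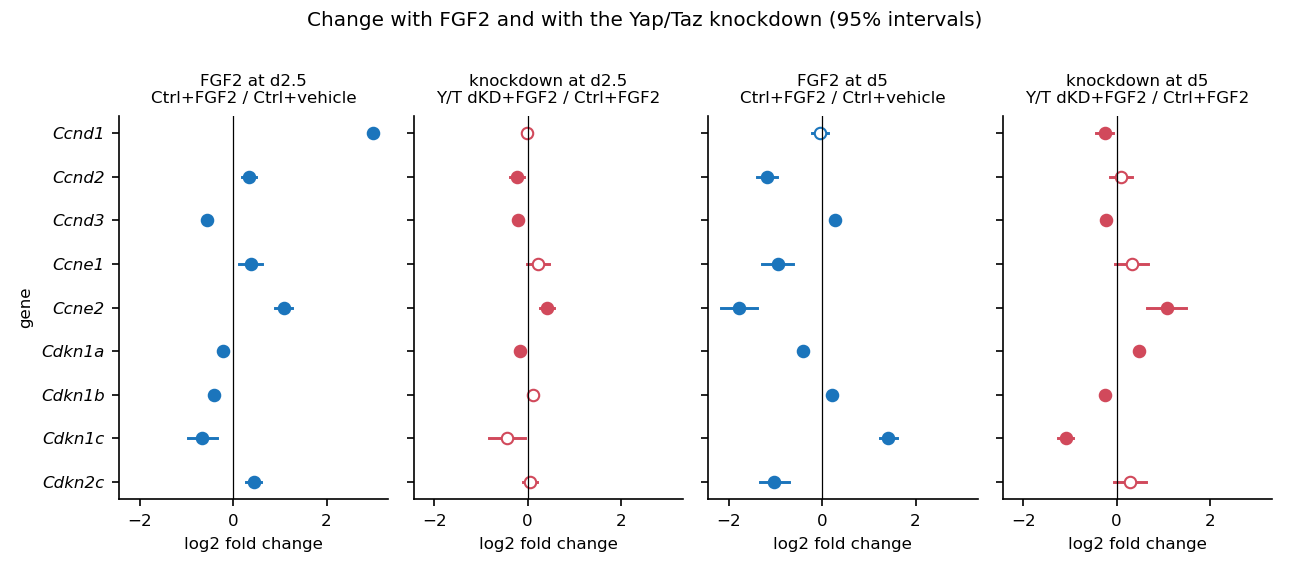
Log2 fold changes of the 9 tested members (rows) with 95% intervals, in 4 comparisons drawn on the same axis. Filled points have an edgeR adjusted p under 0.05 and open points do not; Ccnd1 stands near 3 for FGF2 at d2.5 and at -0.02 for the knockdown at d2.5, and Cdkn1c stands at 1.42 for FGF2 and at -1.09 for the knockdown at d5.

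The second comparison asks what the Yap/Taz knockdown did to these genes in the presence of FGF2 at d2.5. It uses the same Ctrl+FGF2 libraries as the comparison above. Ccne2 rose, and Ccnd2, Ccnd3 and Cdkn1a fell, each by less than 1.4-fold. This was 4 of 9 tested members, where 24.5% of all genes tested were called. The members' median log2 fold change was -0.02, against 0.00 over all genes. Ccnd1 was not called.

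Ccnd1 was at 957, 917 and 908 CPM in the d2.5 Y/T dKD+FGF2 libraries. The values of Ctrl+FGF2 lie within this range. The log2 fold change was -0.02 (SE 0.03, 95% interval -0.08 to 0.04, adjusted p = 0.734). Ccne2 was at 41.4, 33.9 and 37.8 CPM after knockdown, above every Ctrl+FGF2 library, and was 1.33-fold higher (log2 0.41, SE 0.07, adjusted p = 0.000128). Ccnd3 was at 59.3, 63.5 and 59.0 CPM, below each Ctrl+FGF2 library, and was 1.15-fold lower (log2 -0.20, SE 0.05, adjusted p = 0.00217). Cdkn1a was at 167, 170 and 165 CPM, also with no overlap, and was 1.13-fold lower (log2 -0.17, SE 0.04, adjusted p = 0.000634). Ccnd2 was at 21.9, 20.8 and 19.4 CPM and 1.17-fold lower (log2 -0.23, SE 0.07, adjusted p = 0.0216). The Ccnd2 call was lost with DESeq2 (log2 -0.22, adjusted p = 0.0987), with all 18 libraries in 1 fit (adjusted p = 0.0777) and without either of 2 Ctrl+FGF2 libraries or without the knockdown library of replicate 3 (adjusted p = 0.0503 to 0.124).

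The remaining members were not called. Cdkn1c was at 3.06, 2.41 and 2.84 CPM after knockdown, below every Ctrl+FGF2 library, with a log2 fold change of -0.45 (95% interval -0.83 to -0.07, adjusted p = 0.0806). Cdkn1b was at 94.4, 103 and 105 CPM, overlapping Ctrl+FGF2 (log2 0.11, interval 0.02 to 0.20, adjusted p = 0.0822). Ccne1 had a log2 fold change of 0.22 (interval -0.02 to 0.46, adjusted p = 0.179), and Cdkn2c one of 0.06 (interval -0.10 to 0.21, adjusted p = 0.635).

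In 6 pathway lists (kinases, E2f and Dp, pocket proteins, turnover, upstream factors and other INK4), 40 genes were tested with the knockdown at d2.5. Of these 5 were higher and 10 lower, where 24.5% of all genes tested were called. The changes were small, between -0.36 and 0.27 (log2). Of the 6 kinase genes 1 was called, Cdk4, which was lower (log2 -0.10, adjusted p = 0.0163). Of 10 E2f and Dp genes E2f6 was higher (log2 0.27, adjusted p = 9.78e-05) and E2f4 lower (log2 -0.16, adjusted p = 0.0246), both of them repressive members. Rbl1 was the pocket protein gene with the largest rise (log2 0.21, adjusted p = 0.00807), and 2 of the 3 were higher. Of the turnover genes 1 was higher, Dtl (log2 0.18, adjusted p = 0.0276), and 3 were lower, with Fbxo31, which takes part in Ccnd1 protein degradation, the lowest (log2 -0.23, adjusted p = 0.0272). Myc was the upstream factor that fell most (log2 -0.28, adjusted p = 3.08e-06), and Bmi1 was the 1 that rose (log2 0.14, adjusted p = 0.00543). Cdkn2d was lower (log2 -0.36, adjusted p = 0.0246). Of the E2F target genes 7 of 16 were higher and 1 lower, the latter Cdt1, the licensing factor (log2 -0.25, adjusted p = 0.000254), and 4 of 10 G2/M genes were higher, led by Bub1 (log2 0.23, adjusted p = 0.00258).

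Set against Ctrl+vehicle, the d2.5 Y/T dKD+FGF2 cells differed in 8 of 9 tested members, where 69.8% of all genes tested were called. Ccnd1 was 7.89-fold higher (log2 2.98, SE 0.03, adjusted p = 3.82e-34) and Ccne2 2.82-fold higher (SE of the log2 value 0.09, adjusted p = 4.72e-16). Cdkn1c was 2.15-fold lower (log2 -1.11, SE 0.17, adjusted p = 1.07e-06). Ccnd2 was the member not called (log2 0.12, 95% interval -0.04 to 0.27, adjusted p = 0.181). The Wwtr1 ranges of these groups overlapped, while Yap1 was lower in each knockdown library.

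At d5 the comparison of FGF2 with vehicle gave 8 called members of 9, where 47.2% of the 13304 genes tested were called. Both E-type cyclins, Ccnd2, Cdkn1a and Cdkn2c were lower, and Ccnd3, Cdkn1b and Cdkn1c were higher. The median log2 fold change of the members was -0.40, against 0.02 over all genes. Ccnd1 was not called at this day.

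Ccnd1 was at 198, 184 and 188 CPM in d5 Ctrl+vehicle and at 216, 151 and 179 CPM in d5 Ctrl+FGF2. The FGF2 libraries were widely spread and lay on both sides of the vehicle libraries. The log2 fold change was -0.05 (SE 0.08, 95% interval -0.23 to 0.12, adjusted p = 0.611). The value rests on single libraries, being -0.19 (adjusted p = 0.0104) without the Ctrl+FGF2 library of replicate 1 and 0.07 (adjusted p = 0.393) without that of replicate 2. Ccnd2 was at 42.6, 36.2 and 36.5 CPM with vehicle and at 14.3, 19.3 and 16.7 with FGF2, well apart. It was 2.25-fold lower (log2 -1.17, SE 0.10, adjusted p = 5.82e-08). Ccnd3 was at 99.3, 97.8 and 97.9 CPM with vehicle and at 123, 111 and 119 with FGF2, a 1.21-fold rise (log2 0.27, SE 0.04, adjusted p = 6.55e-05).

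Ccne2 was at 20.3, 12.7 and 15.7 CPM with vehicle and at 5.97, 3.75 and 4.22 with FGF2. The lowest vehicle library was above the highest FGF2 library, and the gene was 3.45-fold lower (log2 -1.79, SE 0.18, adjusted p = 4.19e-07). Ccne1 was at 9.35, 8.08 and 9.34 CPM and at 4.87, 3.66 and 5.21 CPM, and was 1.93-fold lower (log2 -0.95, SE 0.16, adjusted p = 8.13e-05). Cdkn1c was at 16.4, 16.1 and 16.2 CPM with vehicle and at 48.4, 41.0 and 39.7 with FGF2. This was the largest rise among the members at d5, 2.67-fold (log2 1.42, SE 0.08, adjusted p = 3.59e-10). Cdkn1a was at 118, 106 and 114 CPM with vehicle and at 81.2, 85.7 and 86.6 with FGF2, thus 1.32-fold lower (log2 -0.40, SE 0.05, adjusted p = 2.73e-06). Cdkn1b was between 133 and 135 CPM with vehicle and between 143 and 164 with FGF2 (log2 0.22, SE 0.05, adjusted p = 0.000791). Cdkn2c was between 17.0 and 23.4 CPM with vehicle and between 7.74 and 11.4 with FGF2, thus 2.03-fold lower (log2 -1.02, SE 0.15, adjusted p = 1.72e-05).

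The S phase and mitotic genes were lower in the same comparison. All 16 E2F target genes were lower at d5 with FGF2 (median log2 -0.73), Ccna2 the most (log2 -1.94, adjusted p = 4.62e-06), and so were all 10 G2/M genes (median log2 -1.66), Ccnb1 the most (log2 -2.06, adjusted p = 3.08e-06). The summed G2/M level was between 312 and 571 CPM in d5 Ctrl+vehicle and between 86.7 and 187 in d5 Ctrl+FGF2, so that the vehicle libraries differed among themselves by more than the gap between the nearest libraries of the groups. Of the kinases 1 was higher and 3 were lower, with Mnat1, a subunit of the CDK-activating kinase, at 0.22 (adjusted p = 0.00821) and Cdk6 at -0.49 (adjusted p = 0.000294). Rbl1 was lower (log2 -0.87, adjusted p = 1.71e-06) and Rb1 too (log2 -0.19, adjusted p = 0.0293), and Rbl2 was higher (log2 0.43, adjusted p = 4.79e-07). Of the E2f and Dp genes 1 was higher, E2f6 (log2 0.20, adjusted p = 0.00169), and 4 were lower, led by E2f7 (log2 -1.85, adjusted p = 1.27e-07). Of the turnover genes Ambra1, which promotes degradation of D-type cyclins, was the 1 that rose (log2 0.22, adjusted p = 0.00445) and 6 fell, Dtl the most (log2 -1.22, adjusted p = 5.73e-06). Foxo3 was the upstream factor with the largest rise (log2 0.64, adjusted p = 4.8e-10) and Myc the one with the largest fall (log2 -0.81, adjusted p = 7.64e-06), with 4 higher and 3 lower of 8. Cdkn2d was not called (log2 -0.36, adjusted p = 0.0748).

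The knockdown at d5 was compared with the same d5 Ctrl+FGF2 libraries. It raised Ccne2 and Cdkn1a and lowered Ccnd1, Ccnd3, Cdkn1b and Cdkn1c, which was 6 of 9 tested members, where 31.7% of all genes tested were called. The median log2 fold change of the members was 0.09, against 0.00 over all genes. The largest changes were those of Cdkn1c and Ccne2.

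Cdkn1c was at 19.1, 20.9 and 20.6 CPM in d5 Y/T dKD+FGF2. Each was below all Ctrl+FGF2 libraries and above all Ctrl+vehicle libraries of that day. Against Ctrl+FGF2 it was 2.13-fold lower (log2 -1.09, SE 0.08, adjusted p = 1.01e-08). Ccne2 was at 10.8, 9.47 and 8.96 CPM and 2.11-fold higher (log2 1.08, SE 0.20, adjusted p = 0.000426), with no overlap. Cdkn1a was at 118, 121 and 117 CPM, above every Ctrl+FGF2 library, and was higher (log2 0.48, SE 0.05, adjusted p = 5.12e-07). Cdkn1b was at 127, 132 and 129 CPM, and was 1.20-fold lower (log2 -0.26, SE 0.05, adjusted p = 0.000297). Ccnd3 was at 98.4, 102 and 99.9 CPM, and was 1.18-fold lower (log2 -0.24, SE 0.04, adjusted p = 0.000429). Both were below all Ctrl+FGF2 libraries.

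Ccnd1 was at 148, 154 and 156 CPM after knockdown at d5, and the lowest Ctrl+FGF2 library lay within that range. It was 1.20-fold lower (log2 -0.26, SE 0.08, adjusted p = 0.0243). The call was lost with DESeq2 (adjusted p = 0.13) and without the Ctrl+FGF2 library of replicate 1, the highest (log2 -0.12, adjusted p = 0.147), or of replicate 3, or without any 1 of the knockdown libraries (adjusted p = 0.0564 to 0.094). The members not called were Ccnd2 at 15.8, 18.6 and 19.96 CPM (log2 0.09, 95% interval -0.15 to 0.34, adjusted p = 0.588), Ccne1 (log2 0.32, interval -0.04 to 0.68, adjusted p = 0.169) and Cdkn2c (log2 0.29, interval -0.05 to 0.62, adjusted p = 0.186).

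Among the pathway lists, 14 of 16 E2F target genes were higher with the knockdown at d5 and 1 was lower. Mybl2 was at 1.10 (log2, adjusted p = 0.00243), and Rrm1, a subunit of ribonucleotide reductase, at -0.32 (adjusted p = 0.001). Of the G2/M genes 6 of 10 were higher, with Ccnb1 at 1.19 (adjusted p = 0.00275). Cdk6 was the kinase with the largest rise (log2 0.75, adjusted p = 4.79e-06) and Mnat1 the 1 that fell (log2 -0.25, adjusted p = 0.00624). Of the pocket proteins Rbl1 was higher (log2 0.35, adjusted p = 0.0186) and Rbl2 lower (log2 -0.31, adjusted p = 2.95e-05). Of the E2f and Dp genes 3 were higher, E2f7 the most (log2 1.14, adjusted p = 0.000137), and 1 was lower, Tfdp2 (log2 -0.30, adjusted p = 0.001). Of the turnover genes 4 were higher, Dtl the most (log2 0.87, adjusted p = 0.000479), and Cul1, the scaffold of the SCF ligases, was lower (log2 -0.15, adjusted p = 0.00888). Myc was the 1 upstream factor that was higher (log2 0.58, adjusted p = 0.00053), and Foxo3 fell most (log2 -0.57, adjusted p = 3.67e-09).

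Set against d5 Ctrl+vehicle, the knockdown cells with FGF2 differed in 6 of 9 tested members, where 41.8% of all genes tested were called. Ccnd2 was 2.11-fold lower (log2 -1.08, SE 0.10, adjusted p = 1.61e-07). Ccne1, Ccne2 and Cdkn2c were lower by log2 fold changes of -0.63, -0.71 and -0.74, and Ccnd1 by -0.31 (adjusted p = 0.000412 to 0.00552). Cdkn1c was 1.25-fold higher (log2 0.33, SE 0.09, adjusted p = 0.00865), a call that was lost with unstranded counts (log2 0.28, adjusted p = 0.0669). The members not called were Ccnd3 (log2 0.03, interval -0.06 to 0.13), Cdkn1a (log2 0.08, interval -0.02 to 0.18) and Cdkn1b (log2 -0.04, interval -0.14 to 0.06).

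From d2.5 to d5, Cdkn1a fell and Cdkn1b and Cdkn1c rose in all 3 groups, whereas Ccnd1 rose in Ctrl+vehicle and fell in both groups with FGF2. In Ctrl+vehicle 5 of 9 tested members were called, where 66.4% of the 14198 genes tested were called. Ccnd1 rose 1.64-fold (log2 0.72, SE 0.07, adjusted p = 1.76e-10), Ccnd2 2.04-fold (log2 1.03, SE 0.08, adjusted p = 7.7e-12) and Cdkn1c 2.75-fold (log2 1.46, SE 0.12, adjusted p = 3.76e-12). Cdkn1a fell 1.91-fold (log2 -0.94, SE 0.04, adjusted p = 1.25e-18), and Cdkn1b rose slightly (log2 0.12, adjusted p = 0.0253). The Cdkn1b call was lost with upper-quartile scaling (log2 0.03, adjusted p = 0.647), without a filter on low counts (adjusted p = 0.0988) and at the threshold of 0.01. It was also lost without the d2.5 library of replicate 2 (adjusted p = 0.105) or the d5 library of replicate 1 (adjusted p = 0.0512).

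In Ctrl+FGF2 all 9 tested members were called between the days, where 80.0% of all genes tested were called. Ccnd1 fell 5.13-fold (log2 -2.36, SE 0.06, adjusted p = 6.67e-24) and Ccne2 6.09-fold (log2 -2.61, SE 0.15, adjusted p = 5.93e-16). Cdkn1c rose 11.4-fold (log2 3.51, SE 0.11, adjusted p = 9.27e-23). Cdkn1a fell 2.21-fold (log2 -1.15, SE 0.04, adjusted p = 6.39e-21), and Cdkn1b rose 1.66-fold (log2 0.73, SE 0.05, adjusted p = 9.91e-15). In Y/T dKD+FGF2 8 of 9 were called, where 78.4% of all genes tested were called. Ccnd1 fell 6.08-fold (log2 -2.60, SE 0.07, adjusted p = 1.17e-24), Ccne2 fell 3.85-fold (log2 -1.94, SE 0.12, adjusted p = 9.37e-15), and Cdkn1c rose 7.28-fold (log2 2.86, SE 0.14, adjusted p = 5.55e-18). Cdkn1a fell (log2 -0.50, SE 0.04, adjusted p = 3.18e-12) and Cdkn1b rose (log2 0.36, SE 0.05, adjusted p = 7.79e-08). Ccnd2 was the member not called there (log2 -0.19, interval -0.39 to 0.01, adjusted p = 0.0701).

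**Figure D3:**
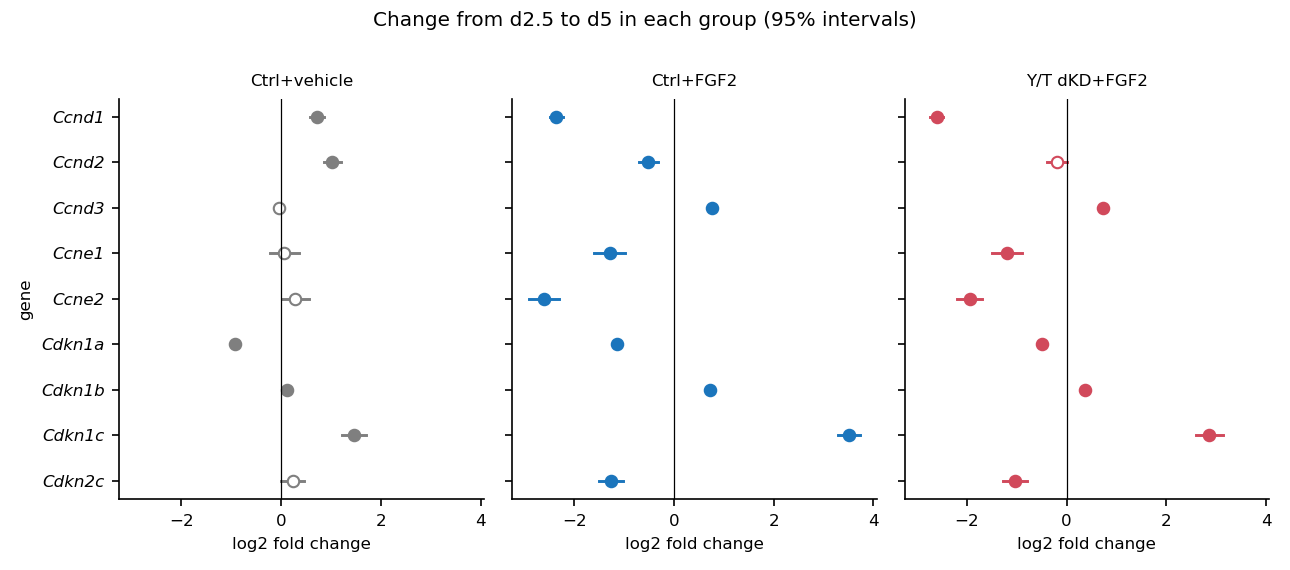
Log2 fold changes from d2.5 to d5 of the 9 tested members (rows) with 95% intervals in each group, drawn on the same axis. Filled points have an edgeR adjusted p under 0.05; Ccnd1 is at 0.72 in Ctrl+vehicle and at -2.36 and -2.60 in the groups with FGF2, and Cdkn1c is above 0 in all 3.

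The difference of the FGF2 effect between the days was tested as an interaction. It was called for all 9 tested members, where 60.9% of all genes tested were called. For Ccnd2, Ccne1, Ccne2 and Cdkn2c the effect went from a rise at d2.5 to a fall at d5, with differences of -1.54, -1.35, -2.89 and -1.49 on the log2 scale (adjusted p = 4.04e-13 to 2.27e-06). For Ccnd3, Cdkn1b and Cdkn1c it went from a fall to a rise, with differences of 0.81, 0.61 and 2.06 (adjusted p = 1.35e-12 to 3.1e-09). The Ccnd1 effect was smaller at d5 by 3.08 (difference -3.08, SE 0.09, adjusted p = 1.48e-21). Beside it, 5 feedback genes of FGF signalling (Spry2, Spry4, Dusp6, Etv4 and Etv5) summed to 50.5 to 52.3 CPM with vehicle and to 495 to 505 with FGF2 at d2.5, and to 66.3 to 87.9 and 87.4 to 100.1 at d5. With FGF2, 5 of the 5 were called higher at d2.5 (67.6% of all genes tested called) and 4 of the 5 at d5 (47.2%). After knockdown they summed to 484 to 496 CPM at d2.5 and to 163 to 176 at d5. At d5 4 of the 5 were called higher than in Ctrl+FGF2, where 31.7% of all genes tested were called. The part of these feedback genes in the FGF2 and knockdown results was not tested. Cdkn1a was lower with FGF2 on both days, and more so at d5 (difference -0.21, SE 0.06, adjusted p = 0.00227), although not past the threshold with upper-quartile scaling (-0.12, adjusted p = 0.0682).

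The difference of the knockdown effect between the days was called for 4 members of 9, where 20.9% of all genes tested were called. Cdkn1a fell with the knockdown at d2.5 and rose at d5, a difference of 0.65 (SE 0.06, adjusted p = 2.06e-09). For Cdkn1b the difference was -0.37 (SE 0.07, adjusted p = 0.000158). Ccne2 had a larger rise at d5 (difference 0.66, SE 0.22, adjusted p = 0.0265) and Cdkn1c a larger decrease (difference -0.65, SE 0.21, adjusted p = 0.0241). These last calls were lost when any of several single libraries was left out, for Ccne2 with adjusted p up to 0.119 (without the d5 Ctrl+FGF2 library of replicate 2) and for Cdkn1c up to 0.0971 (without the d2.5 Y/T dKD+FGF2 library of replicate 1). Ccnd1 was not called (difference -0.24, interval -0.43 to -0.06, adjusted p = 0.0529). It stayed so in 19 of 26 alternatives. It was called with upper-quartile scaling (adjusted p = 0.0356), for example, and without the d5 Ctrl+FGF2 library of replicate 2 (difference -0.365, adjusted p = 0.000165).

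Levels of different genes were compared per kilobase (kb) of merged exons, which understates genes with many alternative exons such as Ccnd3 with 21 annotated transcripts against 3 of Ccnd1. In d2.5 Ctrl+vehicle Cdkn1a had the highest level of the members (60.5 ± 1.73 CPM per kb, SD, n = 3), followed by Cdkn1b (27.0 ± 0.753) and Ccnd1 (24.6 ± 0.644). In d2.5 Ctrl+FGF2 Ccnd1 came first (198 ± 2.29 CPM per kb), ahead of Cdkn1a (52.7 ± 0.529) and Cdkn1b (20.4 ± 0.952), followed by Cdkn2c, Ccne2 and Ccnd3 (8.30, 8.05 and 7.87 CPM per kb). The range of Ccne2 overlapped those of Cdkn2c and Ccnd3, whereas every Cdkn2c library was above every Ccnd3 library. The order in d2.5 Y/T dKD+FGF2 began with the same 3 genes, with Ccnd1 at 197 ± 5.5 CPM per kb. At d5 Ccnd1 was first in Ctrl+vehicle (40.4 ± 1.5), and its range overlapped that of Cdkn1b in Ctrl+FGF2 (38.6 ± 6.91 and 33.8 ± 2.28) and that of Cdkn1a in Y/T dKD+FGF2 (32.4 ± 0.907 and 33.4 ± 0.555). Cdkn1c came after these and Cdkn1a in d5 Ctrl+FGF2, at 21.1 ± 2.32 CPM per kb, where its range overlapped that of Cdkn1a (23.8 ± 0.823).

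Within the D-type cyclins, Ccnd1 made up 64.6% ± 0.732 of the summed per-kb level in d2.5 Ctrl+vehicle, 95% ± 0.0312 with FGF2 and 95.6% ± 0.182 after knockdown. Ccnd3 made up 30.2% ± 0.570 with vehicle and 3.78% ± 0.0513 with FGF2. The summed level of the 3 genes was 38.1 ± 0.771, 208 ± 2.34 and 206 ± 5.55 CPM per kb in the same order of groups. At d5 the Ccnd1 share was between 68.5% and 74.6% in all 9 libraries, and the Ccnd2 share was higher with vehicle (7.32% ± 0.430) than with FGF2 (3.40% ± 0.955). Of the E-type cyclins, Ccne2 made up 54.2% ± 1.80 with vehicle and 65.8% ± 0.256 with FGF2 at d2.5, and 57.6% ± 4.16 and 43.4% ± 5.08 at d5. These shares have no test.

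The summed level of the CIP/KIP genes was 90.4 ± 1.39 CPM per kb in d2.5 Ctrl+vehicle, 74.9 ± 0.821 with FGF2 and 70.5 ± 1.18 after knockdown, and 69.0 ± 2.07, 78.7 ± 1.44 and 71.7 ± 1.34 at d5. Its makeup differed between the days. Cdkn1c made up 3.18% ± 0.496, 2.46% ± 0.260 and 1.93% ± 0.261 of it at d2.5, and 11.5% ± 0.249, 26.9% ± 3.09 and 13.8% ± 0.455 at d5. Cdkn1a made up 66.8% to 70.3% (group means) at d2.5, and 45.9% ± 1.24, 30.2% ± 1.10 and 46.6% ± 0.558 at d5.

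**Figure D4:**
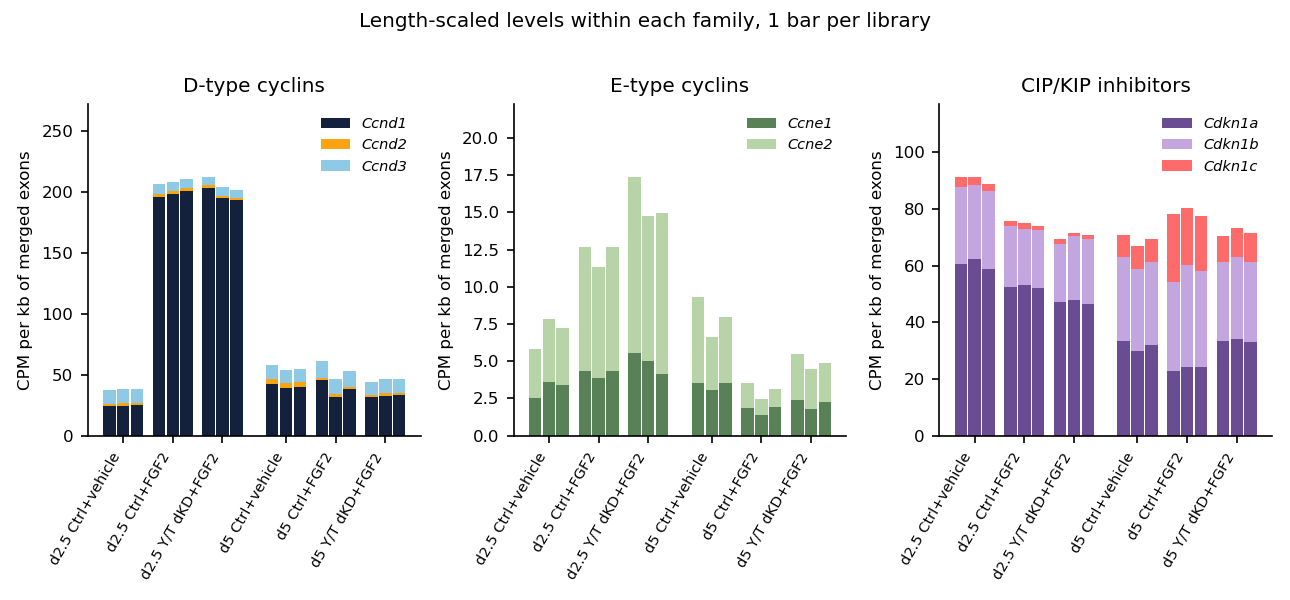
Levels in CPM per kb of merged exons, stacked by gene within the D-type cyclins, the E-type cyclins and the CIP/KIP inhibitors (linear axes from 0), with 1 bar per library. Ccnd1 fills 95% of the D-type bars in d2.5 Ctrl+FGF2, and Cdkn1c fills 26.9% of the CIP/KIP bars in d5 Ctrl+FGF2.

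The patterns of the members over the 6 group means were compared by the root mean square (RMS) difference of their centred log2 CPM, which is a description over 6 points that share libraries. Ccne1 and Cdkn2c were the nearest pair of members, at an RMS difference of 0.07, where Ccne1 spanned 1.48 log2 units. Of 11731 genes compared, Cdkn2c was the gene nearest to Ccne1 and Ccne1 the gene nearest to Cdkn2c, and Sema3a came next to both. Ccnd3 and Cdkn1b were the second nearest pair (0.14). The pair farthest apart was Ccnd1 and Cdkn1c (2.41). For Ccnd1, which spanned 3.01 log2 units, the nearest genes were Fam84b (0.22) and Rbpj-ps3 (0.30). Fam84b was higher with FGF2 at d2.5 by a log2 fold change of 2.72. For Ccne2 they were Slfn9 (0.15) and Cdc6 (0.18), a replication licensing gene. For Cdkn1c, which spanned 3.88, Slc9a3r1 was among the 2 nearest (0.22). Wbp1l was among the 2 nearest to Ccnd3. The genes nearest to Ccnd2 were Trabd2b and Glce, to Cdkn1a Gm49759 and Acsl4, and to Cdkn1b Zfp354a and Zfp780b.

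Cdkn2b, which encodes the INK4 protein p15 and lies on chromosome 4 at 89306299-89311039 (GRCm38, minus strand), had 0 counts in all 18 libraries. Over 223702504 counts this allows a level of up to 0.0134 CPM (3 counts of the total), and 0.204 to 0.289 CPM in a single library, where only counting error is covered. No count was seen on the opposite strand either. Its neighbour Cdkn2a, which encodes p16 and p19Arf, had 12 counts in 7 of 18 libraries and was not tested. Some genes further along the same stretch were counted in every library, while others had few counts or none. Mtap, a gene of methionine salvage, had between 2321 and 13650 counts, and the long non-coding Gm12606, which ends just beyond Cdkn2a, had between 448 and 1850. Dmrta1, on the other side, had between 2 and 15. Whether the gene is present in the genome of these cells was not tested.

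Several members share bases with a gene on the other strand. The exons of Ccne2 overlap those of Ints8, and of the counts on either strand over Ccne2 70.0% were on its own strand, whereas this was 99.0% to 99.8% for the other detected members. Only counts on the gene's own strand entered the levels and tests above.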

How the data were processed

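The authors deposited raw counts per gene for each library, without normalization, in the 4-column layout of STAR's gene counting. Per the labels, libraries were made from poly(A) RNA with the SMARTER mRNA-Seq kit. The submitters' processing notes name FastQC, STAR, Picard, featureCounts and mm10, without versions. The column of the strand that held 96.0% to 96.6% of the stranded counts was used. Entries that name no gene, reads on several places included, made up 27.0% to 34.4% of the entries and stayed out of totals and tests, which lowers genes with near-identical copies. Of 55335 identifiers, 55154 matched GENCODE M21 (GRCm38), the source of symbols, coordinates and merged exon lengths; promoters are from RefSeq (GRCm38.p6).

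The test was the quasi-likelihood F test of edgeR 4.0.16 (R 4.3.3; TMM, filterByExpr, Benjamini-Hochberg adjustment over all genes, threshold 0.05): 9 libraries of a day for comparisons within it, all 18 libraries for comparisons between days. The standard error was taken as |log2 fold change| over √F, and intervals are 95% intervals of the fit. The test was also run on simulated counts in which few genes changed, which does not check it where as many genes change as here. Alternatives were DESeq2 1.42.0, upper-quartile or RLE factors, a replicate block, at least 10 counts in every library or no filter, unstranded counts, a threshold of 0.01, the 2 groups compared alone, all 18 libraries in 1 fit, and leaving out each library. Replicate numbers were not used as pairs in the main test. Correlations of same-numbered deviations were -0.07 to 0.03 at d2.5 and -0.06 to 0.11 at d5. Those between libraries with different numbers were -0.04 to 0.09 at d2.5 and -0.12 to 0.05 at d5. The highest same-numbered value at d5 lay above all of the latter, so these values do not settle whether samples were paired. Within each group no 2 libraries were duplicates, and pairs across groups were not checked for this. Chi-square per degree of freedom between the counts of 2 libraries of a group ran from 1.249 to 6.412. The lowest was that of replicates 1 and 3 of d2.5 Ctrl+FGF2. These values do not settle whether replicates were separate cultures.

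Named genes are all members, the siRNA targets, the called gene with the largest rise and fall of each pathway list in each FGF2 or knockdown comparison within a day (mean log2 CPM of at least 1), and the 2 genes nearest to each member by RMS difference. A few genes that this rule names are not reported here. Values of Rb1, Rbl2 and Cdkn2d outside that rule and the genes around Cdkn2b were added after their values were seen. The members and lists were chosen with earlier results of these data known.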

Additional observations from a re-analysis of the deposited data

Results flagged for a closer look

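The effect of FGF2 differed between the days for all 9 tested members, by an interaction term in edgeR over the 18 libraries. The difference (d5 minus d2.5, log2) was -3.08 for Ccnd1, -1.54 for Ccnd2, 0.81 for Ccnd3, -1.35 for Ccne1, -2.89 for Ccne2, -0.21 for Cdkn1a, 0.61 for Cdkn1b, 2.06 for Cdkn1c and -1.49 for Cdkn2c. The effect of the knockdown differed between the days by 0.66 for Ccne2, 0.65 for Cdkn1a, -0.37 for Cdkn1b and -0.65 for Cdkn1c. Day and batch label cannot be told apart. Groups had 3 libraries, too few to look for single outlying values.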

How the results depend on the processing

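Of 2196 values of single members under an alternative, 2118 kept their direction and side of the threshold, 34 lost a call, 36 gained one and 8 changed sign, none of them a called value. The number of members called stayed within 1.5 times in each comparison but the difference between days of the knockdown effect, with 4 called, 2 at an adjusted p under 0.01, and 2 to 5 when 1 library was left out. The calls that Ccne2 and Cdkn1c hold there, Ccnd2 for the knockdown at d2.5 and Ccnd1 for it at d5 thus rest on the choice of libraries or tool. Values (log2) that changed sign when 1 library was left out ranged from -0.010 to 0.098 for Cdkn2c with the knockdown at d2.5 (lowest without Y/T dKD+FGF2 replicate 1), from -0.194 to 0.066 for Ccnd1 with FGF2 at d5 (without Ctrl+FGF2 replicate 1 and replicate 2), from -0.006 to 0.211 for Ccnd2 with the knockdown at d5 (the same 2 libraries), from -0.089 to 0.173 for Ccne1 from d2.5 to d5 in Ctrl+vehicle (lowest without d2.5 Ctrl+vehicle replicate 1), and from -0.047 to 0.230 for Ccne1 in the difference between days of the knockdown effect (lowest without d5 Ctrl+FGF2 replicate 2). Upper-quartile factors gave -0.033 for Ccne1 from d2.5 to d5 in Ctrl+vehicle, and unstranded counts 0.009 for Ccnd3 in the difference between days of the knockdown effect. The cause was not tested. Over all genes, the threshold of 0.01 left 2057 of 3345 calls for the knockdown at d2.5 and 1781 of 2973 for its difference between days.

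With the replicate number as a block, the counts of members called were the same in every comparison except d5 against d2.5 in Ctrl+vehicle. There Ccne2 (adjusted p = 0.0423) and Cdkn2c (adjusted p = 0.0444) were added, giving 7 against 5. Over all genes, the block gave 3226 calls against 3345 for the knockdown at d2.5 and 4354 against 4220 at d5. For FGF2 it gave 9180 against 9243 at d2.5 and 6352 against 6278 at d5.

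Upper-quartile factors moved the median log2 fold change of all genes from -0.02 to -0.11 for d5 against d2.5 in Ctrl+vehicle and from 0.03 to 0.12 for the difference between days of the FGF2 effect. Cdkn1c at d2.5 and Ccne1 and Ccne2 at d5 are the members with the fewest counts and the widest intervals.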
